A study of Mus musculus with 9 samples.

Results

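Imprinted genes were examined in the hypothalamus of neonatal mice for regions whose methylated DNA differed between control pups and pups exposed to modified maternal separation (MMS). The set held 44 genes that lie in 20 imprinted clusters or single loci. For each gene, the differentially methylated regions (DMRs) of the authors' deposited table that overlapped the gene body, or lay within 10 kb of it, were taken, and a DMR in reach of neighbouring genes was counted once. This gave 29 of the 12949 DMRs, in reach of 17 genes and 14 clusters. Within the table, which holds regions that had passed the authors' threshold, DMRs were assigned to genes by position, whatever their group means.

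The mice were male, of the strain that the labels give as C57/Bl6, and the tissue was whole hypothalamus taken on postnatal day 6. MMS pups were kept out of the home cage for 1.5 h daily, starting on postnatal day 4 and ending on day 6, and turned onto their backs whenever they righted themselves, and tissue was taken right after the last session. Control pups were male littermates assigned at random. DNA of 10 animals per group was allocated at random to 3 pools per group, so each library mixes several animals and many cell types. There were 3 control and 3 MMS libraries of methylated DNA immunoprecipitation (meDIP), in which an antibody against methylated cytosine pulls down fragments, together with 1 input per group and 1 IgG control. These 3 form no group of their own here, but the authors used each group's input for peak calling and normalisation and took off the IgG signal, so these libraries bear on the deposited values.

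Imprinted genes are expressed mainly from the copy inherited from a single parent. The choice is carried by CpG methylation set in egg or sperm, at control regions that keep their mark on that parental copy in nearly all tissues, and a factor complex around the zinc finger protein ZFP57 protects the mark. Most of these control regions are CpG-dense and lie at the start of a gene or of a non-coding RNA. Many imprinted genes are active in the brain, the hypothalamus included, where they are studied for growth, feeding and maternal behaviour.

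Values are the authors' mean of normalised reads per group on a log2 scale, and differences are MMS minus control of these means. No value per library was used, so no error can be given for a mean, and the depth of single libraries was not used. Every DMR in the table had passed the authors' threshold of 0.05 on the false discovery rate, and no further test between the groups was run here. The lowest mean in the table was -0.17 for control, or 0.889 normalised reads, and -0.24 for MMS. A difference against a group at its lowest value depends on where that value was set, so for such DMRs the text gives the 2 means alone.

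Sequences are shown for the most CpG-dense DMR of a cluster, in the order of CpG density, since the antibody reads methylated CpG sites and imprinted control regions are rich in them. Each is the stretch of 150 bases with the most CpG sites within the DMR and clear of annotated untranslated regions. They are written on the plus strand of GRCm38 (mm10), with CpG sites in capitals. The DMR near Nnat, which falls between those of Plagl1 and Slc38a4 in this order, had no such stretch and is not shown.
Rasgrf1, second DMR (chr9:89953977-89954126): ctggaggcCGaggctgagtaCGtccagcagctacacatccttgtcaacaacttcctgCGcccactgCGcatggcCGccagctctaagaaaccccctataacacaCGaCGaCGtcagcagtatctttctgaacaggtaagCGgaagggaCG
Zrsr1 (chr11:22973591-22973740): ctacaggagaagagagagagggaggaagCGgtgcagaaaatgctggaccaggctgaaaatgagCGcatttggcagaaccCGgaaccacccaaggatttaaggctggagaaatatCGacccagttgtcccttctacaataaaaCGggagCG
Usp29, second DMR (chr7:6952470-6952619): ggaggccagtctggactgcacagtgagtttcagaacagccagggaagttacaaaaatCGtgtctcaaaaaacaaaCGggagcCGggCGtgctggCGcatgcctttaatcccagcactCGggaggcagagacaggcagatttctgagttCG
Sgce (chr6:4693676-4693825): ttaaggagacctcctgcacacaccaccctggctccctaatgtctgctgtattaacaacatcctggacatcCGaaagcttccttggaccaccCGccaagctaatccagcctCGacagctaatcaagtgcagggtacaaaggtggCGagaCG
Plagl1, first DMR (chr10:13102048-13102197): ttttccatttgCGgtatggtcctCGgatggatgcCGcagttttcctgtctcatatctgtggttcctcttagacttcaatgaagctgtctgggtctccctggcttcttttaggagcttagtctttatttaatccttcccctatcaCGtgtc
Slc38a4, second DMR (chr15:97018761-97018910): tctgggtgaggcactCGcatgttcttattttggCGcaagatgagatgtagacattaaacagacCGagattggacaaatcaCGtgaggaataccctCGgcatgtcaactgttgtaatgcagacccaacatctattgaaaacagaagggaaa
Mest (chr6:30733729-30733878): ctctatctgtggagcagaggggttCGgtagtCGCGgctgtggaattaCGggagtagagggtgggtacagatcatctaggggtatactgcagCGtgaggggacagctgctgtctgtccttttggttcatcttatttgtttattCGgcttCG

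The Rasgrf1 stretch held 10 CpG sites and lay over 134 coding bases, and the Zrsr1 stretch held 6 and was coding throughout. The Usp29 and Mest stretches held 7 each, although 88% of the Usp29 stretch was soft-masked repeat sequence and none of the Mest stretch was. Those of Sgce and Slc38a4 had 5 CpG sites and that of Plagl1 had 4. The 2 most CpG-dense DMRs of the set thus lay over coding exons.

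MMS had the larger mean in 20 of the 29 DMRs, and control had it in 9. The share higher in MMS was 69.0%, with a 95% Wilson interval of 50.8% to 82.7% that covers counting error only, and over all DMRs of the table it was 62.6%. In whole tissue, a change in the share of a cell type and a change of methylation within cells cannot be told apart. Clusters were mixed in direction: 6 held DMRs higher in MMS alone, 4 held DMRs higher in control alone, and 4 held both. Trappc9 held 7 of the DMRs, Ppp1r9a and Plagl1 3 each, Usp29, Rasgrf1 and Slc38a4 2 each, and the remaining genes 1 each.

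**Figure D1:**
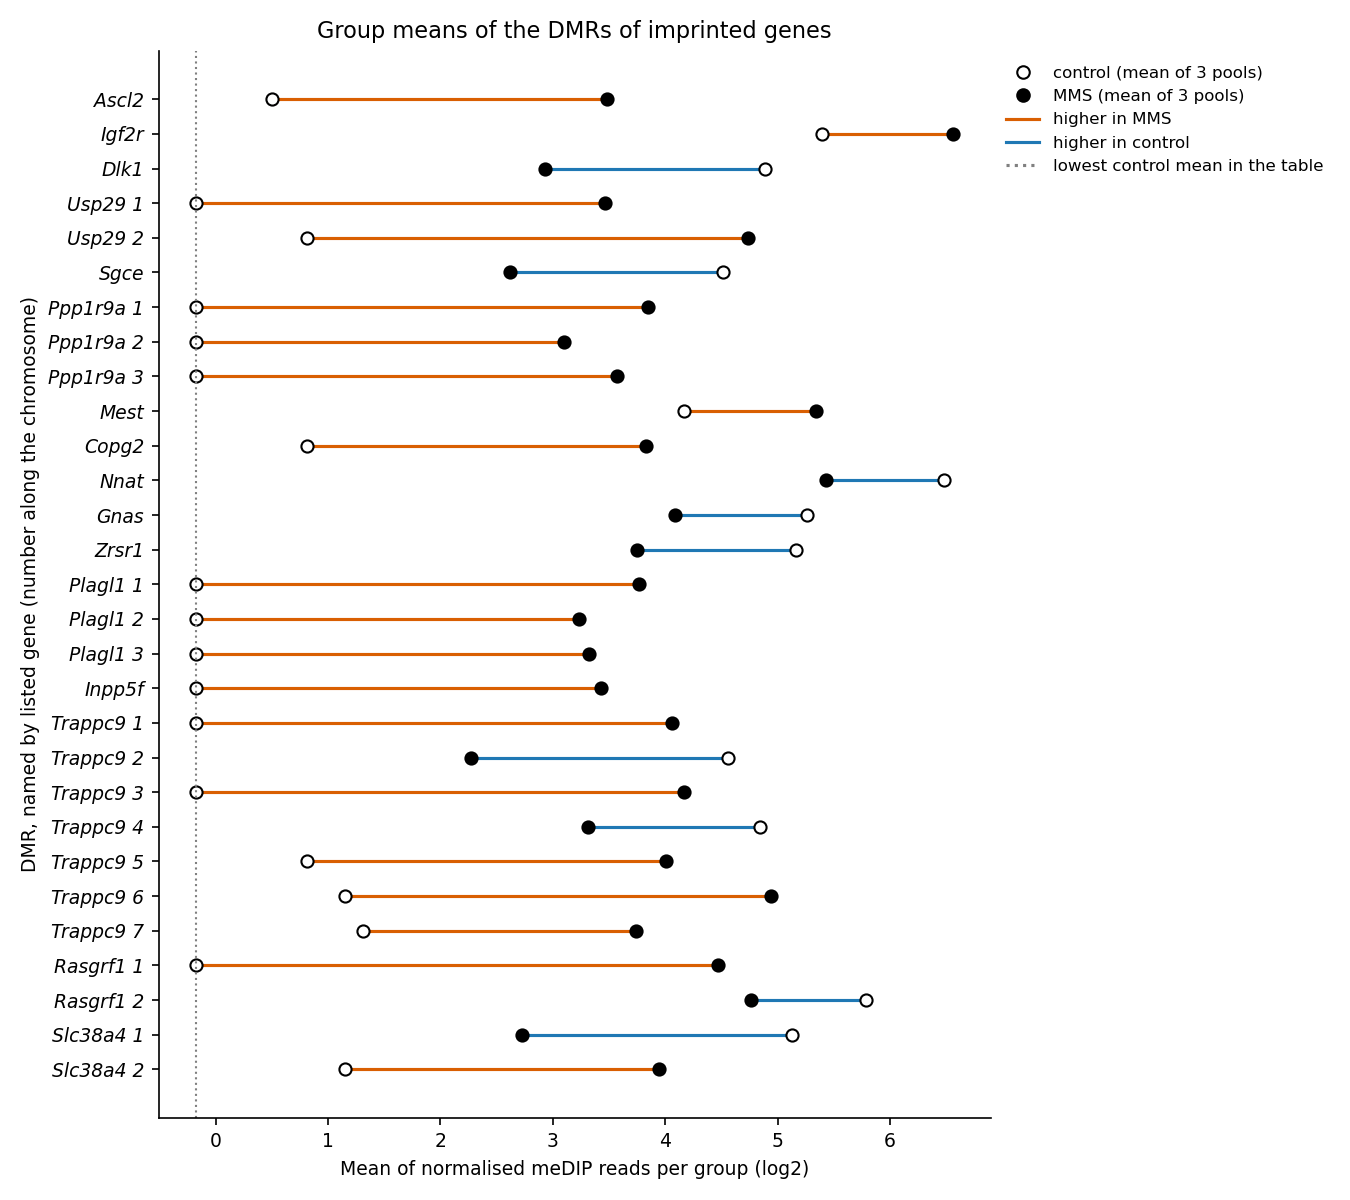
Each line is 1 of the 29 DMRs, named by its gene, and joins the authors' control mean (open circle) and MMS mean (filled circle) of log2 normalised reads; no error bars are drawn because values per library were not used. In 11 DMRs the control mean sits at the lowest value of -0.17 (dotted line), and the 9 DMRs higher in control (blue) start from control means of 4.51 to 6.48.

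The group means differed in level between the directions. In DMRs higher in MMS, the median was 3.84 in MMS and -0.17 in control, and 11 of the 20 (55.0%) had a control mean within 0.5 of its lowest value, all of them exactly at it. Over the whole table, 52.7% of the DMRs higher in MMS had a control mean within 0.5 of the lowest value, and 3917 of the 8105 were exactly at it. In DMRs higher in control, the medians were 5.13 in control and 3.31 in MMS, and 0 of the 9 had an MMS mean within 0.5 of its lowest value, against 4.60% over the whole table. Where both groups had a mean of at least 2, which left 11 DMRs, 9 were higher in control and the other two, in Igf2r and Mest, were higher in MMS. Among all 5675 DMRs of the table with such means, 71.0% were higher in control. The other 18 DMRs of imprinted genes were all higher in MMS, as were 88.8% of the 7274 DMRs of the table that had a mean under 2. Level and direction are read here from the same 2 means, so this split describes the differences and is no separate result.

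**Figure D2:**
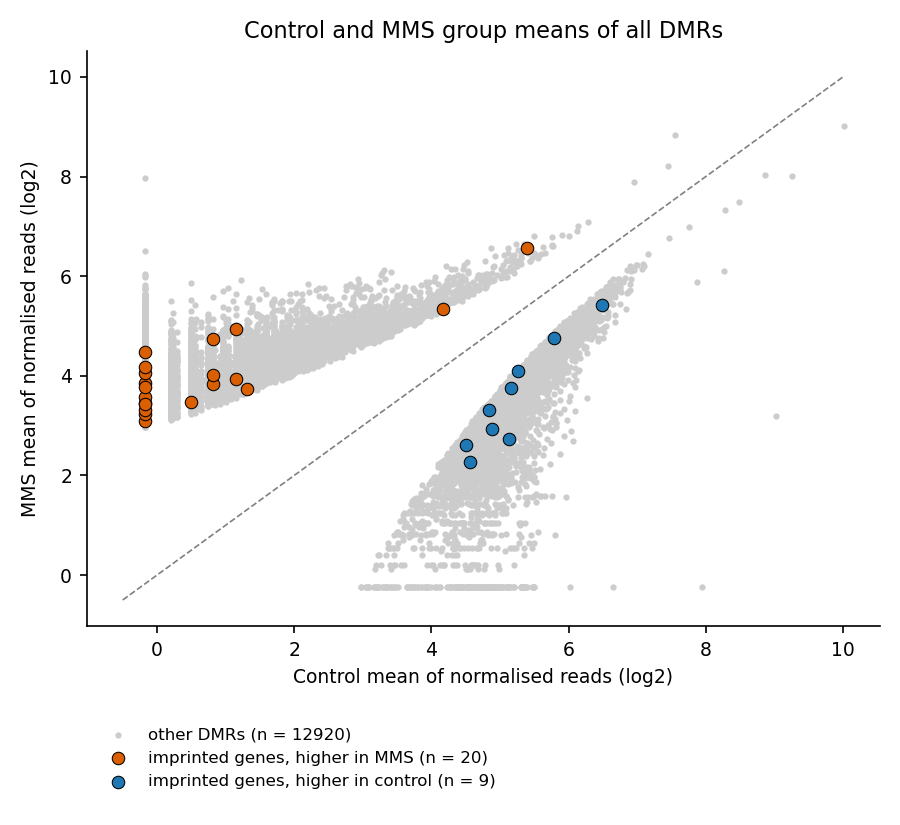
Control mean (x axis) against MMS mean (y axis) of log2 normalised reads for the 29 DMRs of imprinted genes (coloured) and the other DMRs of the table (grey), with a dashed line at equal means. The DMRs of imprinted genes higher in MMS gather on the left, where the control mean is at or near its lowest value, and only those of Igf2r and Mest lie at control means above 4.

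Among genes of the growth axis, the clearance receptor Igf2r carried the DMR with the highest mean of the set. IGF2R binds the growth factor IGF2 and takes it to the lysosome, and the gene is expressed from the maternal copy in most mouse tissues. Its DMR lay on chromosome 17 from 12692127 to 12694759, in intron 37 of a transcript with 48 exons, and touched an exon of the gene. The mean was 5.39 in control and 6.56 in MMS, a difference of 1.17. It was also the widest DMR of the set, with 38 CpG sites in 2633 bp. The imprint of this locus is carried at the start of the antisense RNA Airn inside Igf2r, and the nearest edge of the DMR was 46.6 kb from the CpG-densest start of Airn.

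H19, a non-coding RNA of the maternal copy, and the growth factor Igf2 had no DMR in reach. The nearest DMR to Igf2 lay 20.3 kb away, and the nearest to H19 lay 32.8 kb away. The control region of this pair lies just upstream of H19, and 0 DMRs were listed in the 10 kb upstream of that gene. Grb10, an adaptor that dampens insulin and IGF signalling, and its neighbour Ddc, which makes the enzyme for the last step of dopamine synthesis, had none either, with the nearest DMR 68.9 kb from Ddc and 111893 bp from Grb10.

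In the Kcnq1 cluster on distal chromosome 7, 1 of 5 listed genes had a DMR in reach. It was Ascl2, a transcription factor best known in the trophoblast, with a DMR 3.16 kb upstream of the gene from 142972421 to 142972950. The mean was 0.50 in control and 3.48 in MMS, and 63.6% of the region was repeat sequence. Kcnq1ot1, the antisense RNA whose start is the control region of the cluster, had its nearest DMR 21.6 kb from the gene and 115 kb from that start. The cell cycle inhibitor Cdkn1c, the growth restrictor Phlda2 and the transporter Slc22a18 had their nearest DMRs 276, 320 and 292 kb away.

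At Dlk1-Dio3 on chromosome 12, 1 of 6 listed genes had a DMR in reach. Dlk1 encodes a membrane protein of the Notch ligand family that is expressed from the paternal copy and restrains differentiation. Its DMR lay between 109464707 and 109465795, with its nearest edge 1.37 kb beyond the 3′ end of the gene, and had a mean of 4.89 in control and 2.93 in MMS, a difference of -1.96. The control region of the cluster lies in the 77.7 kb between Dlk1 and the non-coding RNA Meg3, and 2 DMRs were listed in that interval, the one beside Dlk1 and one from 109503807 to 109504743 (5.73 in control, 4.34 in MMS) that was 36.3 kb from Meg3. The bounds of the control region itself were not used, so this count does not place a DMR in that region. Meg3, the small RNA hosts Rian and Mirg, the retrotransposon-derived Rtl1 and the deiodinase Dio3, which inactivates thyroid hormone, had none in reach. From 10 kb before Dlk1 to 10 kb beyond Dio3 there were 11 DMRs in 848 kb, of which 6 were higher in MMS, and 9 of them lay in the stretch between Mirg and Dio3.

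In the Peg3 cluster, where PEG3 is a zinc finger protein of the paternal copy studied for maternal behaviour, neither Peg3 nor Zim1 had a DMR in reach. Usp29, a deubiquitinase gene that starts head to head with Peg3, held 2. The first lay in intron 3, from 6779242 to 6779689 on chromosome 7, with a mean of -0.17 in control and 3.46 in MMS. The second, from 6951833 to 6952687, lay over exon 7 of 9 in an untranslated part and had means of 0.81 and 4.74. Its 855 bp held 23 CpG sites, were 60.5% repeat sequence and gave 5736 alignments of at least 100 bp and 95% identity in the reference, the longest elsewhere being 154 bp. Reads from such copies can fall on part of this DMR, and whether they did was not tested. The shared start of Peg3 and Usp29, the control region of the cluster, was 48.7 kb from the first DMR.

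The Peg10/Sgce cluster on chromosome 6 had 4 DMRs at 2 of its 5 listed genes. Sgce encodes epsilon-sarcoglycan, a membrane protein whose loss on the paternal copy causes myoclonus dystonia in people. Its DMR, from 4693596 to 4693834 in intron 6, had a mean of 4.51 in control and 2.62 in MMS, a difference of -1.89, and was free of repeat sequence. Ppp1r9a encodes neurabin, a scaffold of dendritic spines. It had DMRs from 4946148 to 4946478 in intron 2, from 5105629 to 5105787 in intron 7 and from 5170873 to 5171448, where the centre lay 5499 bp past the 3′ end in an intron of Pon1. The control mean was -0.17 in all 3, and the MMS means were 3.85, 3.10 and 3.57. The DMR of intron 2 was 98.8% repeat sequence with 93 alignments, the one in Pon1 had 124 alignments, and that of intron 7 aligned to itself alone but held 1 CpG site in 159 bp. Peg10, a retrotransposon-derived gene that shares a CpG-dense start region with Sgce, had its nearest DMR 53.6 kb from that start. Asb4, which is expressed in hypothalamic neurons, and the calcitonin receptor Calcr had their nearest DMRs 183 and 176 kb away.

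At Mest on chromosome 6, a hydrolase gene of the paternal copy, the DMR from 30733626 to 30734236 had a mean of 4.17 in control and 5.34 in MMS, a difference of 1.17. It lay 120 bp from an annotated start of the gene and 3.81 kb upstream of the CpG-densest start, where the control region lies. Copg2, a coatomer subunit that overlaps the 3′ end of Mest, had a DMR in intron 9 from 30846802 to 30846967, with means of 0.81 and 3.83 and 2 CpG sites in 166 bp.

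Nnat encodes neuronatin, a small membrane protein of the paternal copy that is abundant in the developing brain, and sits in an intron of Blcap. Its DMR, from 157556859 to 157557697 on chromosome 2, ended 2.38 kb upstream of the start, over an untranslated part of Blcap. The mean was 6.48 in control, the highest control mean of the set, and 5.43 in MMS, a difference of -1.05. Gnas encodes the stimulatory G protein alpha subunit and has several imprinted alternative starts. Its DMR was 229 bp wide, from 174289455 to 174289683, in intron 2 of a transcript with 13 exons and inside the antisense transcript Nespas, with means of 5.26 in control and 4.09 in MMS, a difference of -1.17. H13, a signal peptide peptidase gene on the same chromosome, had its nearest DMR 18.4 kb away.

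Zrsr1 is an intronless gene of the paternal copy that encodes a splicing factor and lies within an intron of Commd1, a gene of copper metabolism. A single DMR, from 22973450 to 22973762 on chromosome 11, was in reach of both. It lay in the coding sequence of Zrsr1, with a mean of 5.16 in control and 3.75 in MMS, a difference of -1.41. It held 9 CpG sites in 313 bp, touched a CpG island and was 235 bp from the CpG-densest start of Zrsr1, the closest of any listed gene. It reached the promoter of a Commd1 transcript (1000 bp before a start and 100 bp after it), and Commd1 was the 1 listed gene with a DMR there. Over all protein-coding genes 2.41% had a DMR over a promoter.

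Plagl1, a zinc finger protein of the paternal copy that slows the cell cycle, held 3 DMRs on chromosome 10, all higher in MMS. They ran from 13102048 to 13102212 and from 13107717 to 13107952 in intron 3, and from 13128484 to 13128737 in the coding part of the last exon. The control mean was -0.17 in each, and the MMS means were 3.77, 3.23 and 3.32. They were 165 to 254 bp wide, held 4 or 5 CpG sites each and aligned to themselves alone. The nearest was 11035 bp from the CpG-densest start, which is the imprinted one. Inpp5f, a phosphoinositide phosphatase with an imprinted short transcript in the brain, had a DMR in intron 1 from 128627045 to 128627529 on chromosome 7, with means of -0.17 and 3.43.

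Trappc9, a subunit of a vesicle trafficking complex that is expressed more from the maternal copy in brain, spans 472 kb on chromosome 15 and had more DMRs than any other listed gene. All 7 lay in introns. Along the chromosome, the first (72740758 to 72741053) and the third (72821915 to 72822470) had a control mean of -0.17 and MMS means of 4.06 and 4.17. The fifth (72889172 to 72889614), the sixth (73001434 to 73002169) and the seventh (73022850 to 73023594) were also higher in MMS, with control means of 0.81, 1.15 and 1.31 and MMS means of 4.01, 4.94 and 3.74. The second (72797321 to 72797930) and the fourth (72884508 to 72885176) were higher in control, with control means of 4.56 and 4.84, MMS means of 2.27 and 3.31, and differences of -2.29 and -1.53.

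The gene was thus mixed in direction along its length. The imprint of this locus is carried at Peg13, a non-coding RNA of the paternal copy inside a Trappc9 intron. The second and the third DMR lay on opposite sides of Peg13 and had opposite directions, with their centres 12699 and 11868 bp from its start. The fourth and the fifth, also of opposite directions, were 3995 bp apart.

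Rasgrf1 and Slc38a4 each held a pair of DMRs of opposite direction. RASGRF1 is a neuronal exchange factor for RAS that responds to calcium. Its first DMR, in intron 2 from 89943062 to 89943978 on chromosome 9, had a mean of -0.17 in control and 4.47 in MMS, with 4 CpG sites in 917 bp. The second, 9485 bp further on over exon 5 from 89953464 to 89954305, had means of 5.79 and 4.76, a difference of -1.03, with 27 CpG sites in 842 bp, the highest CpG density of the set at 3.21 per 100 bp. SLC38A4 carries amino acids into cells. Its DMRs on chromosome 15 were 6029 bp apart, in intron 6 from 97011969 to 97012731, with 5.13 in control and 2.73 in MMS (a difference of -2.40), and in intron 2 from 97018761 to 97019499, with 1.15 and 3.94 (a difference of 2.79).

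Of the 20 clusters, 6 had no DMR in reach: H19/Igf2, H13, Grb10, Zdbf2, Snrpn/Ube3a and Impact. The Snrpn/Ube3a cluster, the locus of Prader-Willi and Angelman syndromes in people, lay farthest from any DMR among the 20 clusters, although its long span was not empty. Its genes are Snrpn, a splicing protein, the ubiquitin ligase Ube3a, which is maternal in neurons, and the paternal genes Ndn, Magel2 and Mkrn3, the last a brake on puberty. The nearest DMR was 580 kb from Mkrn3 and 1590 kb from Ube3a, and the 3210 kb from Ube3a to Mkrn3 held 2 DMRs. Zdbf2 and Impact, single imprinted genes of the paternal copy, had their nearest DMRs 129 and 56.5 kb away.

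A DMR in reach was found for 17 of the 38 listed protein-coding genes (44.7%), where 28.6% of all 21951 protein-coding genes had one. Over all 55450 annotated genes of every kind the share was 19.1%, and over the 44 listed genes 38.6%. Genes that are not protein-coding thus had a share below 19.1%. Of the 6 listed non-coding RNA genes 0 had a DMR in reach, and 6 genes are few to set beside that share. The share of all protein-coding genes rises with gene length, from 14.5% of those under 10 kb to 81.3% of those over 300 kb. Within length classes the listed genes had a DMR in 3 of 9 under 10 kb (14.5% of all), 2 of 8 from 10 to 30 kb (23.4%), 7 of 14 from 30 to 100 kb (38.3%), 4 of 6 from 100 to 300 kb (61.9%) and 1 of 1 above that. These classes hold few listed genes and no test of the difference was run. The windows of the listed genes covered 3.63 Mb with 7.98 DMRs per Mb, and the autosomes had 5.36 per Mb of known sequence. The autosomal value includes sequence far from genes, so the comparison is not like for like, and Trappc9 alone held 7 of the 29 DMRs.

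**Figure D3:**
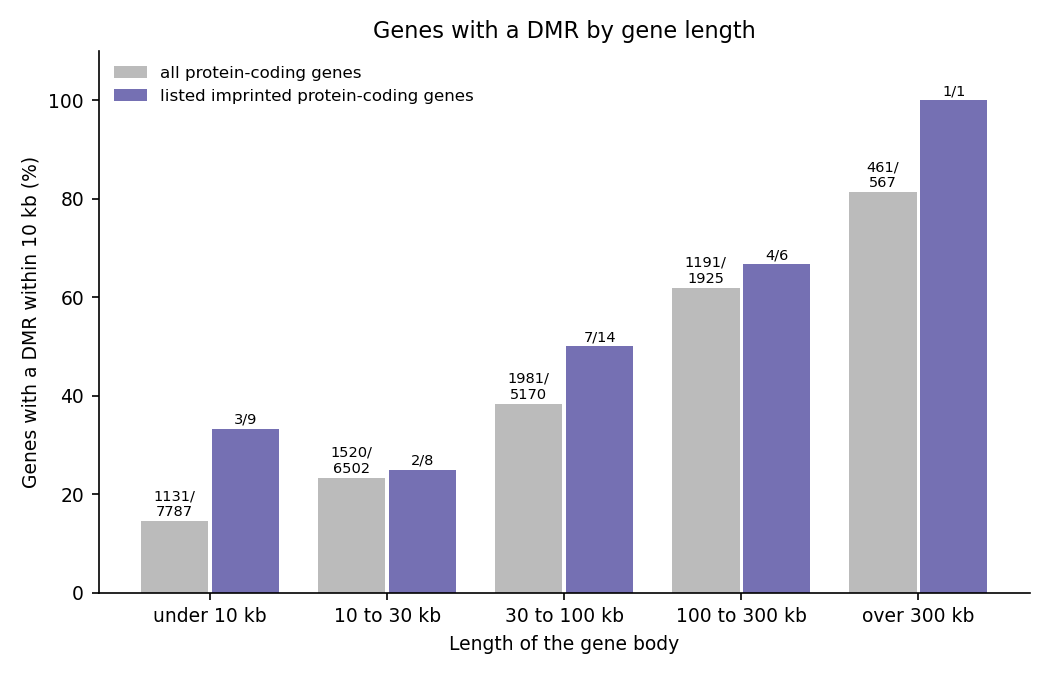
Percentage of protein-coding genes in reach of a DMR (overlap, or at most 10 kb away), by length of the gene body, for all protein-coding genes (grey) and for listed imprinted genes (purple), with the counts above the bars. Over all genes the percentage climbs with each class, from 14.5% to 81.3%, and the listed genes, at 33.3% and 25% in the shortest classes, do not follow it step by step.

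Positions were then compared with gene starts, since most control regions lie there. For each gene the annotated start with the most CpG sites around it was taken, and the median over the 44 genes was 6.44 CpG per 100 bp. This start is not always the place of the imprint, which for Trappc9 is at Peg13. The counts therefore describe gene starts and cannot show whether control regions lack DMRs. A DMR covered this start in 0 of the 44 genes, and in 0.178% of all protein-coding genes, so a count of 0 is near the background. A DMR within 5 kb was found for 5 listed genes, namely Zrsr1 and Commd1, which share 1 DMR, and Nnat, Ascl2 and Mest, and for 6.41% of all protein-coding genes. The DMR of Gnas was 40.6 kb from the CpG-densest start of that gene but 4.02 kb from that of Nespas, which was not among the 44. The start of Peg10 and that of Snrpn were among those farther away, at 53.6 and 1190 kb.

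**Figure D4:**
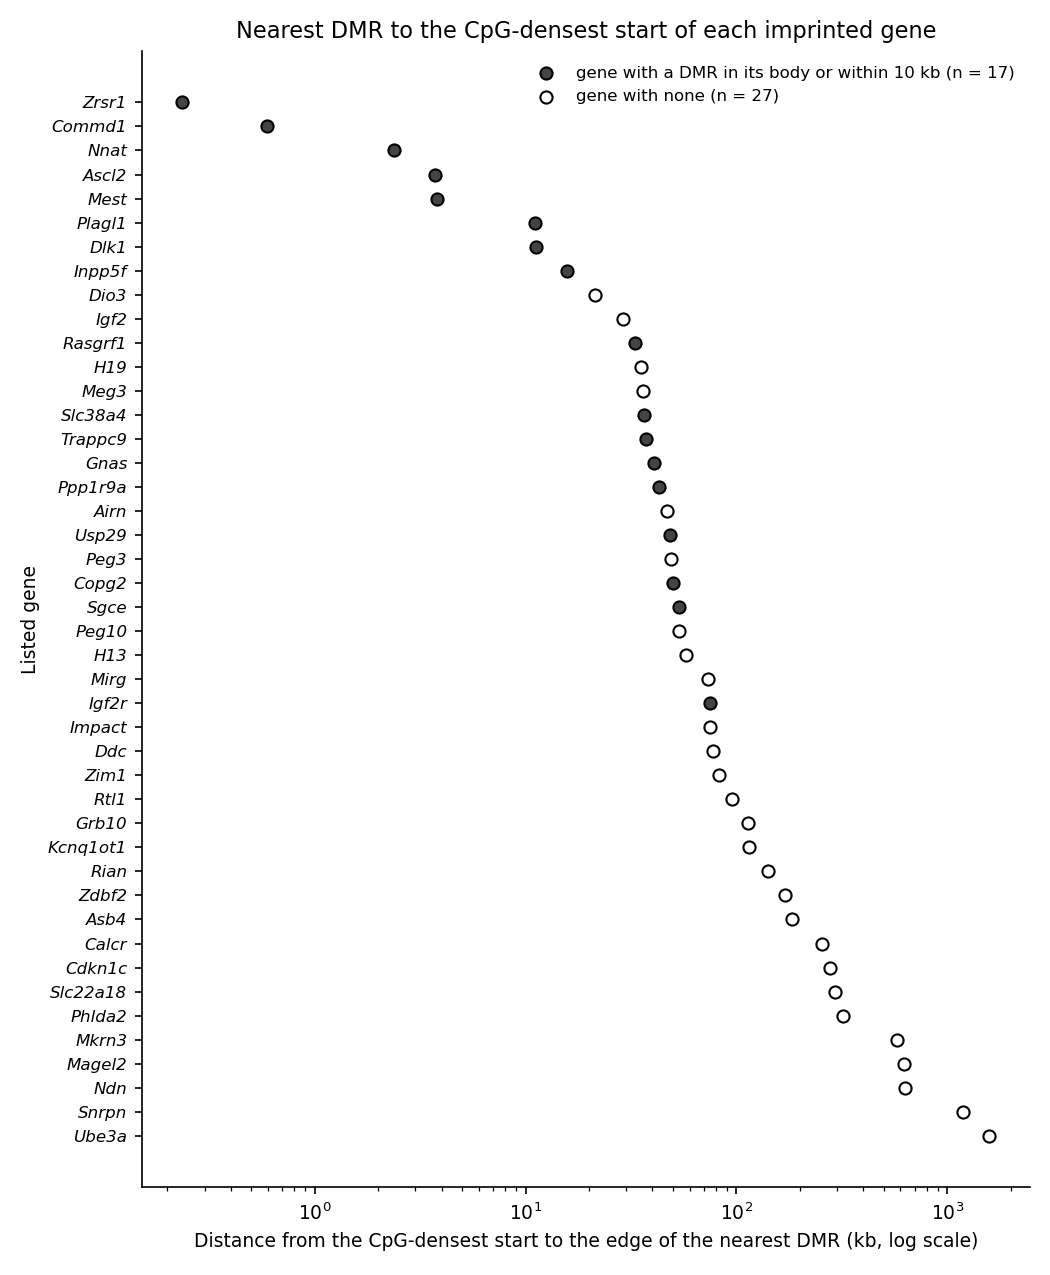
Distance in kb (log scale) from the CpG-densest start of each of the 44 listed genes to the edge of the nearest DMR, with genes that have a DMR in reach filled. Zrsr1 is closest at 0.235 kb, and the 5 genes at the far end, Mkrn3, Magel2, Ndn, Snrpn and Ube3a, form the Snrpn/Ube3a cluster at 580 kb or more.

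By centre, 21 of the 29 DMRs lay in introns of the named gene, 4 in exons, 2 upstream and 2 downstream. In sequence they resembled the table as a whole. The median was 1.35 CpG sites per 100 bp (quartiles 1.08 and 1.91), where all DMRs had 1.32 (0.889 and 1.88), and the GC content was 47.0% against 47.4%. Their median width was 556 bp against 544 bp, and their median soft-masked share was within 1 percentage point of that of all DMRs, at 20.6%. A CpG island, taken as a 200 bp stretch with at least 50% GC and an observed to expected CpG ratio of at least 0.6, was touched by 6 of the 29 (20.7%), as by 18.3% of all DMRs. These were the DMRs of Sgce, Nnat, Gnas and Zrsr1 and the second DMRs of Usp29 and Rasgrf1, of which 5 were higher in control and that of Usp29 in MMS. Of the 2368 DMRs of the table that touch an island, 44.6% were higher in control, and 6 DMRs are few to set beside that share. In the reference, 25 of the 29 aligned to themselves alone, and the exceptions were the second DMR of Usp29, those of Ppp1r9a in intron 2 and in Pon1 and the first of Slc38a4.

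**Figure D5:**
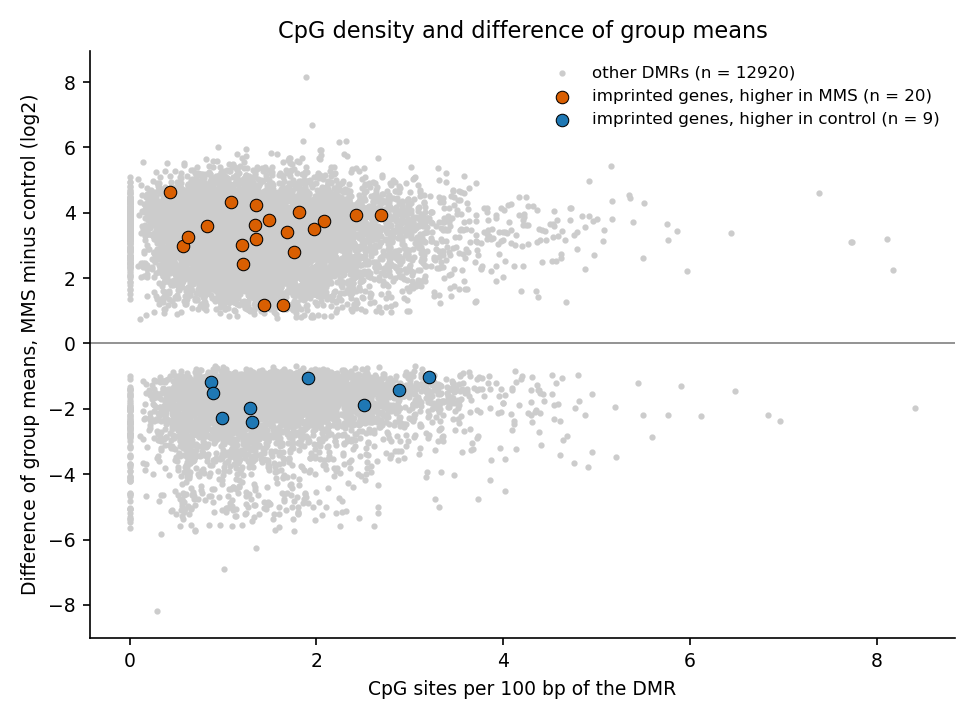
CpG sites per 100 bp (x axis) and difference of group means, MMS minus control on the log2 scale (y axis), of the 29 DMRs of imprinted genes (coloured) and the other DMRs of the table (grey). The coloured points lie between 0.436 and 3.21 CpG per 100 bp, and those higher in control have differences from -2.40 to -1.03. The height of points whose control mean is at its lowest value depends on where that value was set.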

How the data were processed

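The authors sequenced meDIP libraries of 3 control and 3 MMS pools on the Ion Proton and mapped the reads to mm10 in Torrent Suite. Broad peaks came from MACS2, version 2.1 in the submitters' processing notes, with the inputs as control. The methods give the human setting for genome size on these mouse reads, which can change which regions were called, and its effect was not tested. For the comparison of groups the authors used DiffBind with DESeq2 and edgeR. The deposited values are log2 means of normalised reads per group. The authors' fold changes, p-values and FDR were in the table and were not used. The columns named untreated and treated were read as control and MMS. The depth of single libraries was not analysed here, and 3 pools per group limit the precision.

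Genes, transcripts and exons came from GENCODE vM21 on GRCm38, the build of the table. Exon and intron numbers refer to the longest protein-coding transcript that spans the centre of the DMR. Sequence features came from the RefSeq copy of GRCm38, whose chromosome lengths held every DMR. Alignments used BLAST 2.17.0, with samtools 1.23.1, Python 3.11.15, pandas 2.3.3, numpy 2.4.6, statsmodels 0.14.6 and matplotlib 3.10.9. The counting was tested on simulated positions. Every member with a DMR was named. The members, clusters and lists were chosen with earlier results of these data known. Alternatives varied the window, the minimum difference and width, DMRs at the lowest value and the gene bounds.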

Additional observations from a re-analysis of the deposited data

How the results depend on the processing

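Values per library were not used, so no replicate could be left out. No paired analysis was possible because the table holds group means and no column for a replicate. The 3 pools per group limit every value, and library depth was not used. As reported there were 29 DMRs, 20 of them higher in MMS, in reach of 17 genes and 14 clusters. A window of 50 kb each side gave 53 DMRs, 35 of them higher in MMS. A minimum difference of 2 left a share of 90.0% higher in MMS, in reach of 9 genes and 9 clusters. Without DMRs whose lower group was within 0.5 of its lowest value, 18 DMRs were left, 9 higher in MMS, a share of 50%, and the median difference was 0.07 where it had been 3.02. The 11 DMRs removed were all higher in MMS. Neither shift in share was particular to imprinted genes. Across the 12949 DMRs, the median difference was 3.43 where MMS had the larger mean and -1.73 where control had it. A cut at 2 thus favours MMS across the table too. Of all its DMRs, 3831 with the larger mean in MMS and 4621 with it in control had a lower group above that limit. Other windows, a width of at least 300 bp, RefSeq bounds and centres in the window moved no count by over 1.5 times and no share or median beyond its interval. With the DMR of the largest difference in each cluster, taken for the share alone, it was 71.4%, but that choice favours DMRs with a control mean at its lowest value. The same held without Trappc9 and with DMRs of a single alignment alone. Whole cluster spans gave 52 DMRs, 35 higher in MMS. Whole spans and the 2 settings before them were chosen after the data were seen.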

Other observations

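A further list of imprinted genes and neighbours of imprinted genes held 51 names, of which 49 were found, and 23 of these (46.9%) had a DMR by the same window, where 28.6% of all protein-coding genes and 19.1% of all genes had one. They were in reach of 38 DMRs, 22 of them higher in MMS, as were 62.6% of all DMRs, and 4 of the 38 were already described above. The 46.9% is not matched for gene length, with which the share over all protein-coding genes rises. Some of these genes are long, such as Kcnq1 at 321 kb. Sfmbt2, a polycomb-related gene of the paternal copy, had 3 intronic DMRs, all higher in control, with control means of 5.82, 5.72 and 5.09 and MMS means of 4.49, 3.54 and 3.02. Pde10a, a phosphodiesterase of the striatum, had 6 over 461 kb, 3 in each direction. Ago2, next to Trappc9, had 3, of which 2 were higher in MMS. Adam23, beside Zdbf2, and Smoc1 had 2 each, all higher in MMS. A promoter was reached by a DMR of Begain, upstream of Dlk1 (-0.17 in control, 4.21 in MMS), and by one of Jade1 (5.04 in control, 3.22 in MMS), where 2.41% of all protein-coding genes had a promoter DMR.

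Between listed genes of the same cluster lay DMRs outside the windows. The gene Kcnq1 held DMRs from 143147655 to 143148263 (2.65 in control, 4.98 in MMS) and from 143181727 to 143181891 (1.03 and 3.56), and a DMR in reach of the gene but outside it, from 143097977 to 143098565, went the other way (4.69 and 2.90). The Peg10/Sgce span of 1770 kb held 11 DMRs in all, 8 of them higher in MMS. In the span from Snrpn to Mkrn3, the DMRs were in A230006K03Rik (-0.17 in control, 4.00 in MMS) and A230057D06Rik (4.73 and 2.69).

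Of 22 factors that set, keep or remove methylation at imprinted loci, 12 (54.5%) had a DMR in reach, against 28.6% of all protein-coding genes. These shares are not matched for gene length, and some factors are long, such as Dnmt3a at 108 kb and Smchd1 at 131 kb. Of all protein-coding genes, 38.3% of those from 30 to 100 kb and 61.9% of those from 100 to 300 kb had a DMR in reach. The 12 factors were in reach of 20 DMRs with 13 higher in MMS, beside 62.6% of all DMRs. Dnmt1, the maintenance methyltransferase, had 2 intronic DMRs with a control mean of -0.17 and MMS means of 4.12 and 3.75. Of the other methyltransferases, Dnmt3b had 1 DMR, higher in control (5.44 against 3.94), and Dnmt3a had 1 in each direction (4.95 in control and 3.24 in MMS, and -0.17 and 3.39). The demethylase genes Tet1 and Tet2 had 1 each, higher in control (5.24 against 2.24 and 5.36 against 3.45), and Tet3 had 1 in each direction. Zfp445 and Dnmt3l, of which ZFP445 binds imprinted control regions, had 3 and 4, both in mixed directions. Each had 1 over a promoter (2.68 in control and 4.68 in MMS for Zfp445, -0.17 and 3.82 for Dnmt3l). Over all protein-coding genes 2.41% had a promoter DMR. Trim28 (1.68 in control, 5.47 in MMS), Smchd1 (-0.17 and 4.11), Ehmt2 (2.32 and 5.02) and Arid4b (0.81 and 3.76) had 1 each, higher in MMS. The imprint guard Zfp57 had none. These lists were chosen with earlier results of these data known, and no test was run on them.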
